A study of Homo sapiens with 18 samples.

Results

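The human LINC genes are long intergenic noncoding RNA genes that carry a numbered LINC symbol in place of a name based on function. The count table lists 585 such symbols among 25296 genes. Members were all of them, apart from 1 symbol set aside by the rule, whose estimated read count averaged at least 20 over the 18 libraries, which gave 164 genes. They were selected on the mean count alone, a measured value. The members just inside the threshold were LINC01842 with a mean count of 20.7, LINC01193 with 20.7 and LINC02323 with 20.7, and the genes just outside it were LINC01534 with 19.8, LINC01881 with 19.7 and LINC01748 with 19.7. All 164 members passed the filter on low counts used for testing, as did 115 of the 420 LINC genes under the threshold. Because the mean runs over all groups, a gene can be a member through the libraries of 1 line only. LINC01419, LINC01287 and LINC00896, described with the line comparisons, are of this kind. A gene high only with cytarabine can also be a member. LINC01597 had 3 to 16 counts in untreated libraries and 25 to 44 in treated ones. The counts of called members below include such genes, whose rise in the group that admitted them is a description.

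The libraries came from U2OS, a human osteosarcoma cell line, transduced with the MigR1 retroviral vector. MigR1 was empty (EV), carried wild-type DNMT3A (WT), or carried mutant DNMT3A (MUT); which substitution was used cannot be told from the sources, as the series title has R882C and the genotype field R882H. Each line was left without drug (untreated in the labels, vehicle in the series text) or given cytarabine at 10 µM for 24 h. The 6 groups have 3 biological replicates each by their labels; all carry the vector backbone, and whether a line is a pool or 1 clone was not given in the sources used here.

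Long intergenic noncoding RNAs are made by RNA polymerase II from their own promoters, are usually spliced and polyadenylated, and do not encode protein. Many are weakly expressed and restricted to few tissues, and some act on the gene next to them. DNMT3A adds methyl groups to CpG dinucleotides that were unmethylated, and cytarabine is a nucleoside drug that stalls DNA synthesis once incorporated.

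Library totals ranged from 15.4 M to 21.9 M estimated counts. DNMT3A itself stood between 26.2 and 27.5 CPM (counts relative to library size) in untreated EV, between 129 and 139 in untreated WT and between 254 and 615 in untreated MUT. With cytarabine it was between 45.5 and 49.6 in EV, 166 and 182 in WT and 515 and 532 in MUT, so every library matched its line label. The untreated MUT libraries stood apart from each other: chi-square per degree of freedom between pairs was 21.2 to 46.8, against 2.45 to 3.56 in untreated EV and 2.77 to 2.89 in untreated WT. It was 7.50 to 15.2 in treated EV. Of 10 mesenchymal and bone markers 8 were at 1 CPM or more in every library, while of 6 blood markers 5 stayed under 1 CPM or had no row and PTPRC reached 1.41 CPM. Of 5 epithelial markers only EPCAM was at 1 CPM or more in every library, between 1.78 and 4.26 CPM. KRT20 and ESRP1 stayed under 1 CPM in all libraries. CDH1 ran from 0.356 to 5.53 CPM and KRT5 from 0.0525 to 5.33 CPM.

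The members were mostly weak transcripts. Their mean CPM over all libraries had a median of 3.21 and ran from 1.04 to 113, with 103 of 164 under 5 CPM and 13 at 20 CPM or more. The 5 most abundant held 28.8% of the members' summed CPM and the 10 most abundant 40.0%. LINC00963 had the highest mean, 113 CPM, followed by LINC00958 with 96.2 CPM. Per kb of annotated exon, which allows a comparison between genes, the order was different: LINC00973 led with 49.4 CPM per kb, ahead of LINC02104 with 19.6, LINC00452 with 17.8 and LINC00958 with 16.7. LINC01029 had 11.2 CPM per kb, LINC02001 11.0, LINC01638 10.4 and LINC01436 8.86. The summed CPM of all members was 1267 ± 4.54 (SD, n = 3) in untreated EV and 1301 ± 48.6 with cytarabine, 1314 ± 11.0 and 1365 ± 8.31 in WT, and 1214 ± 26.0 and 1291 ± 30.6 in MUT.

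Members lie on 23 chromosomes, 17 of them on chromosome 1. The authors' table types 136 as lincRNA and 13 as processed transcript, 2 as bidirectional promoter transcripts, and the rest as pseudogene, antisense or mixed types. By its coordinates 69 members overlap another gene of the table and 95 do not, and 52 overlap a gene on the opposite strand. The labelled library kit is not one that marks strand and the counting was not given in the sources used here, so reads of a member and of an overlapping or antisense gene cannot be told apart for these 69.

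RefSeq promoter windows, 250 bases before to 50 after the annotated start on GRCh38.p14, matched 101 of the 164 members. Those of 6 members that the results turn on are shown 5′ to 3′ with every CpG dinucleotide, the substrate of DNMT3A, in capitals. LINC02086 rose with cytarabine in every line (chr17:48646509-48646808, plus strand, 31 CpG), and LINC00839 (chr10:42475241-42475540, plus strand, 9 CpG) and LINC00641 (chr14:21206851-21207150, minus strand, 2 CpG) were among the falling members. LINC02104 (chr5:39520181-39520480, plus strand, 3 CpG) was higher in both DNMT3A lines than in EV. LINC01287 (chr7:153412185-153412484, minus strand, 15 CpG) and LINC00665 (chr19:36331669-36331968, minus strand, 12 CpG) were lower in both. RefSeq starts can differ from the gene limits in the authors' table: the LINC01287 window lies inside its gene there.
LINC02086: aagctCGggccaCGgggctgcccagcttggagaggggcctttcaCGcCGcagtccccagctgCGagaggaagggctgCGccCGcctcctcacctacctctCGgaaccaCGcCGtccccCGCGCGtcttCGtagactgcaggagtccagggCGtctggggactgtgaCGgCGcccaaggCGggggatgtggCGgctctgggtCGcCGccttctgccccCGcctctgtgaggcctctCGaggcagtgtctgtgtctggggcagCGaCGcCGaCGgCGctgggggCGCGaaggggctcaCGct
LINC00839: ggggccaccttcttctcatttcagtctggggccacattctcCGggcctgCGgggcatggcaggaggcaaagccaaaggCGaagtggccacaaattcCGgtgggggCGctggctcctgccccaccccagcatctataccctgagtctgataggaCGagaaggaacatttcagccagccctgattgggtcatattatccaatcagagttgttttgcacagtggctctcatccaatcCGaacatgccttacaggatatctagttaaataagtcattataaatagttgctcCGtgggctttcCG
LINC00641: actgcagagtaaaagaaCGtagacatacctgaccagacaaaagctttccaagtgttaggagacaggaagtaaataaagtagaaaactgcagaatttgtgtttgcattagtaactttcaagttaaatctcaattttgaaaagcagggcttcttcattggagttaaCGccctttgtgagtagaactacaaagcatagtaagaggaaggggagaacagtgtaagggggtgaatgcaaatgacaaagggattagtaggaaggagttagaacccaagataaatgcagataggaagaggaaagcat
LINC02104: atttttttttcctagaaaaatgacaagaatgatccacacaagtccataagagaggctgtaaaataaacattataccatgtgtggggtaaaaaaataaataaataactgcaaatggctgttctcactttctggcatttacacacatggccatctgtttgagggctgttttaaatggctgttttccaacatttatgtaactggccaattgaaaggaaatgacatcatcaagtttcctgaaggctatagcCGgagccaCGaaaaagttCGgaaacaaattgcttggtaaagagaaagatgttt
LINC01287: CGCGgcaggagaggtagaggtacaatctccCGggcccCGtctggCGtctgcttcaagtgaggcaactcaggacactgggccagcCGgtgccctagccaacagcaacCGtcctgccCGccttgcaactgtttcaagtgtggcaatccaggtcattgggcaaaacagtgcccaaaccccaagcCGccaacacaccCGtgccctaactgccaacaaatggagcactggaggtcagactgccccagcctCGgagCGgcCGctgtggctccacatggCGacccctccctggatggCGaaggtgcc
LINC00665: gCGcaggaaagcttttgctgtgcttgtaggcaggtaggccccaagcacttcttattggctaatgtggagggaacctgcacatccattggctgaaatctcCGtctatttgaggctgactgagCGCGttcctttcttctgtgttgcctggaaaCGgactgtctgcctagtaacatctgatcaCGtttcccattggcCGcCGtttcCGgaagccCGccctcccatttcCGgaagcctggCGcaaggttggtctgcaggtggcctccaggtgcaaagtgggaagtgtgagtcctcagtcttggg

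Cytarabine changed more members upward than downward in each line. Called here means an adjusted p under 0.05 by edgeR's quasi-likelihood test with Benjamini-Hochberg adjustment over all 18226 genes tested. In EV 63 of 164 members were called, 47 higher and 16 lower, against 49.1% of all genes tested, 26.1% higher and 22.9% lower. In WT 65 were called, 50 higher and 15 lower, against 49.0%, 26.3% and 22.7% of all genes. In MUT 80 were called, 63 higher and 17 lower, against 56.3%, 30.4% and 25.9%, and without untreated MUT replicate 1, 2 or 3 there were 72, 76 and 72. As shares, 38.4%, 39.6% and 48.8% of members were called, under the share of all genes in each line. The members' median log2 fold change was 0.25, 0.26 and 0.34 in the 3 lines, where the median of all genes was 0.05, 0.03 and 0.05.

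**Figure D1:**
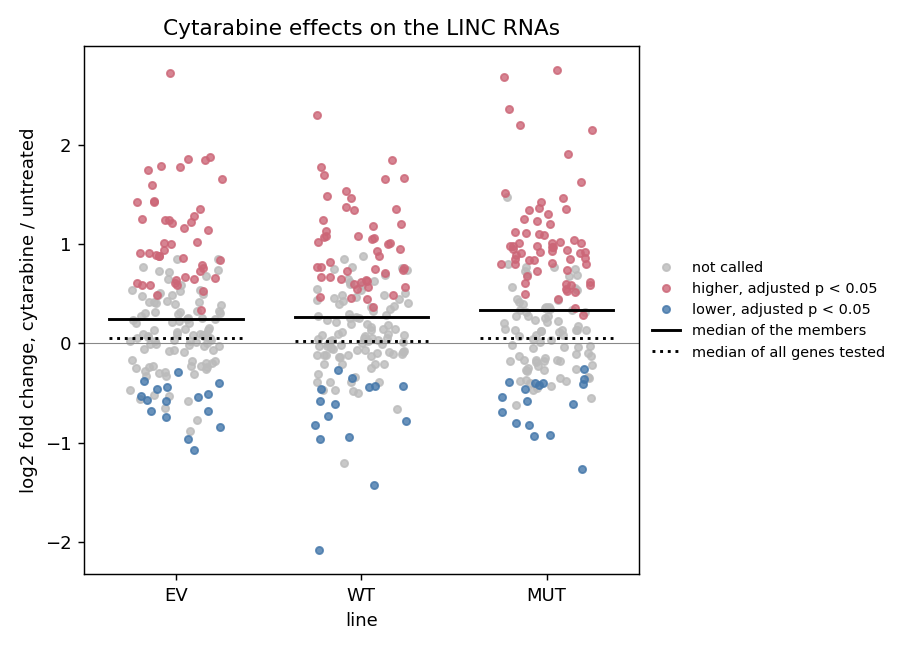
Log2 fold change of cytarabine against untreated (y axis) for each of the 164 members in the EV, WT and MUT lines (x axis); red points were called higher, blue lower and grey not called, solid bars are the members' medians and dotted bars the medians of all genes tested. In each line the members' median (0.25, 0.26 and 0.34) lies above that of all genes.

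Weak genes of any kind rose more often than they fell in these libraries, so the members were set beside other tested genes of the same mean count. In EV, among genes with a mean count from 20 to 50, 25.0% of 68 members and 30.9% of other genes were called higher, and 2.94% and 2.89% lower. From 50 to 200 counts, 33.3% of 63 members and 38.8% of other genes were higher. At 200 counts and over, 27.3% of 33 members and 26.4% of others were higher, and 24.2% and 31.6% lower. In MUT the shares called higher were 32.4% against 34.5%, 46.0% against 42.9% and 36.4% against 32.2% over the same ranges, and in WT 26.5% against 28.7%, 31.7% against 37.4% and 36.4% against 28.4%. The shares called lower in WT were 4.41% of members against 5.56% of others, 4.76% against 10.8% and 27.3% against 29.7%, and in MUT 2.94% against 7.90%, 11.1% against 13.3% and 24.2% against 33.1%. Up to 200 counts rises outnumbered falls in members and in other genes of all lines. At 200 counts and over they did so among the 33 members, by 9 to 8 in EV, 12 to 9 in WT and 12 to 8 in MUT. Among the other genes falls were the more frequent. The 62 other genes annotated as lincRNA in this range were near balance. They had 18 rises and 19 falls in EV, 17 and 19 in WT and 22 and 21 in MUT. None of these differences was tested.

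**Figure D2:**
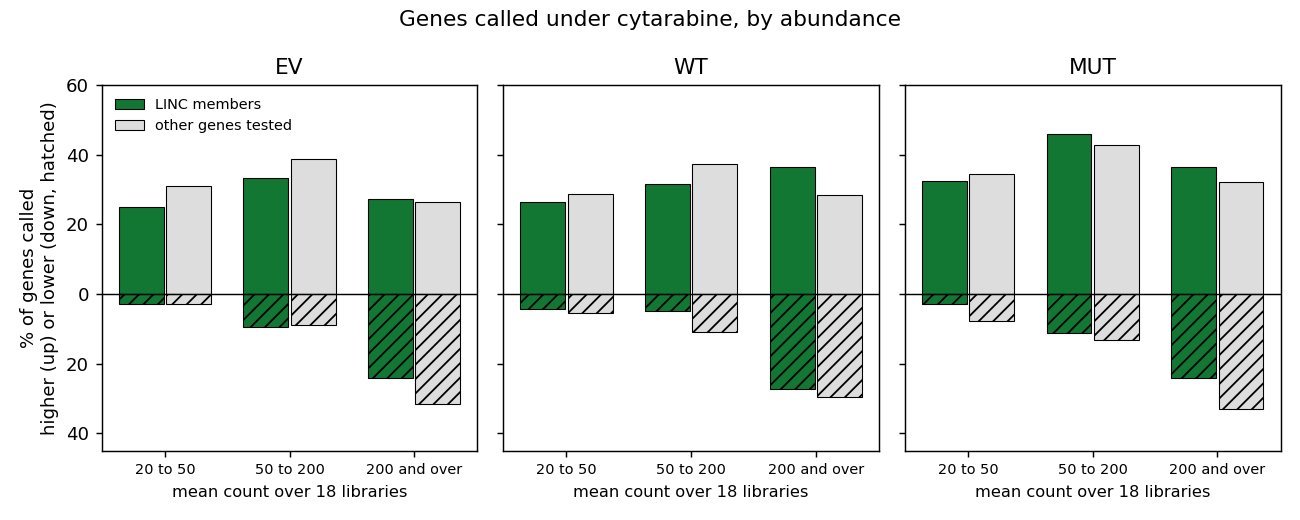
Percent of genes called higher (bars up) or lower (hatched bars down) with cytarabine in each line, by mean count over 18 libraries on the x axis; green bars are LINC members and grey bars the other genes tested. Falls are common only in the most abundant class, for members (24.2% in EV) as for other genes (31.6%).

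Members called higher in all 3 lines numbered 33 (20.1%), members called lower in all 3 numbered 8 (4.88%), and both together 41 (25.0%), where 18.9%, 16.4% and 35.3% of all genes tested did so. The share that rose in all lines was near that of all genes, and the share that fell was below it. Of the 98 members called in at least 1 line, 28 were called in exactly 2 and 29 in exactly 1. The other 66 were called in none, and no member was called in opposite directions in 2 lines. The effects had the same sign in all 3 lines for 120 members, called or not. Shares of all genes were taken only for calls in all 3 lines. The other counts in this paragraph therefore describe the members and do not set them apart from other genes. Across the 164 members the effects correlated between lines, which share no library. Pearson's r was 0.77 between EV and WT, 0.79 between EV and MUT and 0.69 between WT and MUT (Spearman's rho 0.77, 0.79 and 0.76). Weak members carry more counting noise in each line.

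LINC02407, whose current GENCODE symbol is LNCOG, had the largest mean effect over the lines. It lies at chr12:76259839-76305132 on hg38, as all gene positions here by the authors' table. It measured 0.351, 0.409 and 0.492 CPM in untreated EV and 3.08, 2.25 and 2.99 CPM with cytarabine. In WT it went from 2.01, 2.59 and 1.92 CPM to 6.31, 5.40 and 4.88, and in MUT from 0.802, 0.755 and 0.628 to 3.95, 3.40 and 2.79. Treated and untreated libraries did not overlap in any line, and WT was highest in both states. The log2 fold change was 2.73 ± 0.27 (SE; adjusted p = 9.41e-08) in EV, 1.34 ± 0.20 (adjusted p = 1.97e-05) in WT and 2.20 ± 0.24 (adjusted p = 2.27e-07) in MUT by edgeR's quasi-likelihood test.

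LINC00520 (chr14:55781132-55796732, overlapping no other gene of the table) rose in every line. Its values were 2.57, 1.69 and 3.01 CPM in untreated EV and 9.29, 8.68 and 8.25 CPM with cytarabine. They were 1.67, 1.43 and 1.70 against 5.43, 4.65 and 6.43 CPM in WT, and 1.55, 0.692 and 1.83 against 5.23, 5.94 and 7.19 CPM in MUT. Every treated library exceeded every untreated one, with log2 fold changes of 1.85 ± 0.24, 1.78 ± 0.25 and 2.15 ± 0.25. LINC02086, a neighbour of the HOXB cluster with the CpG-rich promoter shown above, had 1.75, 0.643 and 1.17 CPM in untreated EV and 4.11, 5.18 and 3.89 with cytarabine. In WT it had 1.42, 0.899 and 1.65 CPM and then 6.36, 6.75 and 6.43, and in MUT 1.55, 1.20 and 1.43 and then 3.69, 4.36 and 3.97. Its groups did not overlap either, and its log2 fold changes were 1.87 ± 0.27, 2.29 ± 0.25 and 1.51 ± 0.26.

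LINC00589, a gene on chromosome 8, showed its largest rise where it started lowest. Untreated MUT had 0.301, 0.566 and 0.400 CPM and treated MUT 2.99, 3.21 and 2.31, a log2 fold change of 2.75 ± 0.33. In WT it went from 2.11, 1.53 and 1.04 CPM to 5.06, 5.13 and 4.84 (log2 fold change 1.67 ± 0.27). In EV it went from 1.75, 0.818 and 1.35 to 2.69, 2.25 and 2.99 CPM (1.02 ± 0.28), with groups that did not overlap. The difference between the MUT and EV effects had an adjusted p of 0.10 by edgeR's quasi-likelihood test and was not called. LINC01719 on chromosome 1 had log2 fold changes of 1.59, 1.70 and 1.63 for the lines in the same order as before, EV first. LINC01597 had 1.29, 1.35 and 2.36, and all 6 were called. LINC00589, LINC01719 and LINC01597 all reached the mean of 20 counts only through their treated libraries. Untreated counts were 6 to 43, 7 to 23 and 3 to 16, and treated counts 36 to 109, 32 to 89 and 25 to 44. Their rises are therefore a description and support nothing. For LINC00589 the largest rise and the lowest start also rest on the same untreated MUT values.

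LINC00511 (chr17:72290091-72640473), a transcript widely studied in tumours, rose in all lines from a higher level. It measured 16.2, 17.9 and 16.9 CPM in untreated EV and 24.6, 24.0 and 27.8 with cytarabine. WT went from 13.2, 12.7 and 13.6 CPM to 24.0, 19.1 and 24.1, and MUT from 14.1, 15.2 and 16.3 to 26.5, 25.1 and 28.4. The groups did not overlap in any line, with log2 fold changes of 0.59 ± 0.10, 0.77 ± 0.10 and 0.81 ± 0.10. LINC00346, now PRECSIT and known as a p53-regulated transcript of squamous carcinoma cells, rose by 1.43 ± 0.20 in EV, 1.65 ± 0.22 in WT and 0.85 ± 0.18 in MUT. LINC00632, the host gene of the circular RNA CDR1as and singled out after its values were seen, rose by 1.42 ± 0.18, 1.00 ± 0.17 and 1.10 ± 0.18 as a gene; the circular form was not analysed here.

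**Figure D3:**
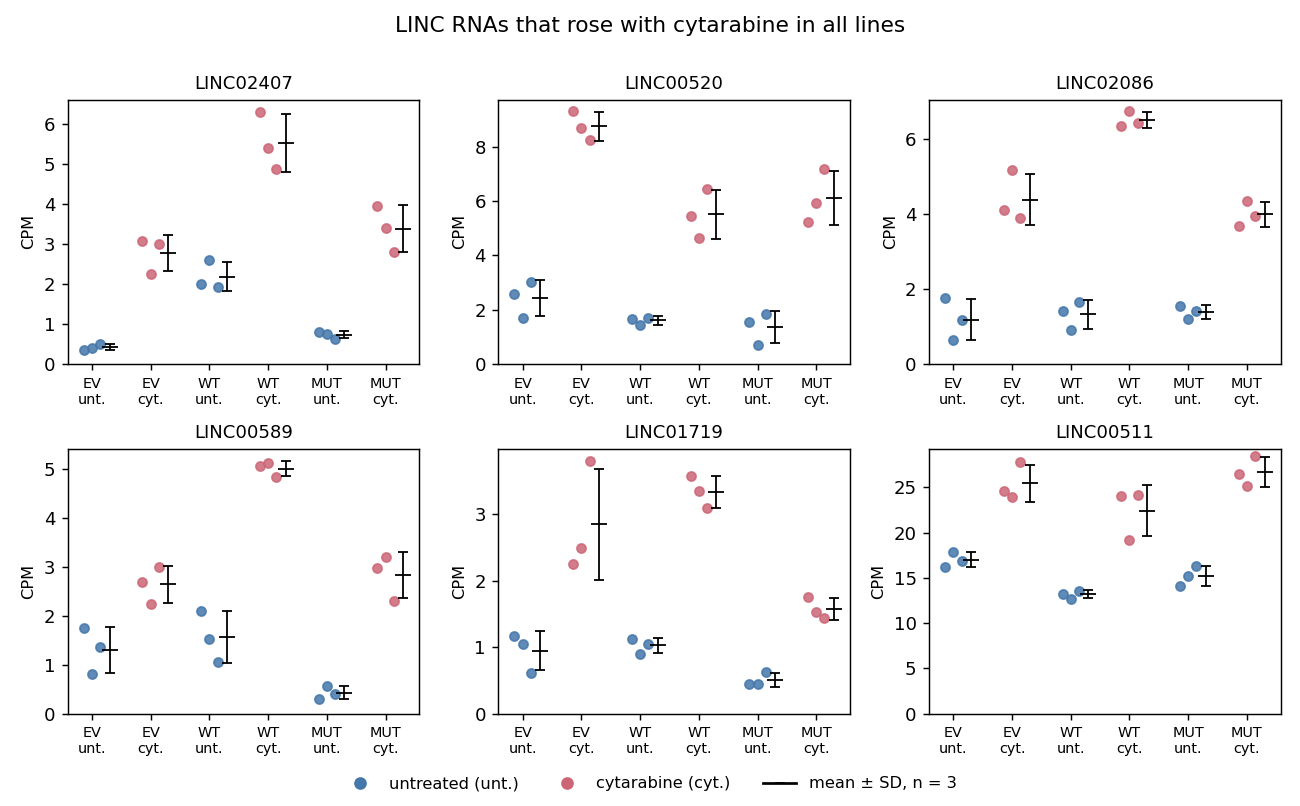
CPM (y axis) in each library for 6 members that rose with cytarabine in all lines, by line and treatment (x axis: EV, WT, MUT; unt. untreated, cyt. cytarabine); bars show mean ± SD, n = 3. In each panel and line every treated point lies above every untreated point. LINC00589 and LINC01719 are members only through their treated libraries.

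The members that fell in all lines were LINC00839, LINC01089, LINC01578, LINC00460, LINC02616, LINC00662, LINC00963 and LINC00958, and they include the most abundant, LINC00963 (chr9:129483451-129513687) and LINC00958 (chr11:12961842-12989549). LINC00963 measured 149, 146 and 142 CPM in untreated EV and 115, 124 and 120 with cytarabine, 118, 122 and 122 against 78.3, 81.3 and 82.4 in WT, and 104, 130 and 131 against 95.7, 85.2 and 94.3 in MUT. LINC00958 measured 103, 102 and 107 CPM against 75.6, 81.3 and 79.6 in EV, 101, 103 and 108 against 87.0, 89.3 and 83.8 in WT, and 109, 121 and 113 against 86.0, 91.8 and 90.1 in MUT. Both stayed apart from their untreated libraries in each line, with small changes. The log2 fold changes of LINC00963 were -0.29 ± 0.08, -0.58 ± 0.08 and -0.40 ± 0.08, and those of LINC00958 -0.39 ± 0.06, -0.26 ± 0.06 and -0.36 ± 0.06, in EV, WT and MUT.

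LINC00839 had the largest mean fall of these 8 and overlaps no other gene (chr10:42475543-42495337). It measured 39.4, 37.0 and 40.5 CPM in untreated EV and 24.5, 17.5 and 23.0 with cytarabine, 45.5, 49.4 and 46.2 against 25.7, 27.9 and 28.3 in WT, and 38.8, 30.2 and 44.3 against 17.2, 23.2 and 24.5 in MUT. No treated library reached an untreated one. Its log2 fold changes of -0.84 ± 0.14, -0.78 ± 0.13 and -0.80 ± 0.14 differed by less than their standard errors. LINC00460, known from several carcinomas, had log2 fold changes of -0.54, -0.44 and -0.93. LINC01089, an epidermal growth factor-repressed transcript also called LIMT, had -0.58, -0.96 and -0.53 with adjusted p of 0.038, 0.0011 and 0.045 (edgeR). In MUT its highest treated library exceeded its lowest untreated one. LINC01089 overlaps RHOF on the same strand, so its reads cannot be told apart from those of that gene.

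LINC01578 (chr15:92882707-92899702) is the transcript now named CHASERR, which lies next to the chromatin remodeler gene CHD2 and is known to hold CHD2 expression down in cis. By the authors' coordinates it overlaps the gene AC013394.1 on the same strand, so its reads cannot be told apart from those of that gene. LINC01578 measured 21.5, 19.7 and 23.1 CPM in untreated EV and 17.7, 12.4 and 14.9 with cytarabine, 26.2, 28.1 and 21.7 against 13.0, 14.7 and 15.2 in WT, and 22.6, 16.9 and 23.7 against 14.3, 13.7 and 13.4 in MUT. The groups did not overlap and its log2 fold changes were -0.51 ± 0.14, -0.82 ± 0.13 and -0.61 ± 0.14. CHD2 had mean CPM of 51.1 and 45.0 in EV, 44.1 and 42.9 in WT, and 39.7 and 45.8 in MUT, untreated and treated. It was called in none of the lines, with log2 fold changes of -0.18 ± 0.11, -0.04 ± 0.11 and 0.21 ± 0.11 and adjusted p of 0.19, 0.80 and 0.13 by edgeR's quasi-likelihood test.

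LINC00973 and LINC00641 were called lower in some lines only. LINC00973, the most abundant per kb, measured 55.1, 55.3 and 51.3 CPM against 36.2, 36.1 and 45.1 in EV and 45.6, 33.0 and 43.8 against 28.2, 30.5 and 34.8 in MUT, where the highest treated library exceeded the lowest untreated one. In WT it measured 70.2, 61.3 and 57.0 against 54.7, 60.8 and 56.5 CPM, with overlap. It fell by 0.46 in EV and 0.39 in MUT on the log2 scale, and its value in WT was -0.13 ± 0.11 (adjusted p = 0.35 by edgeR's quasi-likelihood test). LINC00641 measured 2.10, 3.74 and 3.01 CPM against 1.76, 1.62 and 0.855 in EV and 3.14, 2.12 and 1.92 against 1.25, 0.973 and 0.435 in WT, both without overlap, with log2 fold changes of -1.08 ± 0.36 and -1.43 ± 0.38. In MUT its value was -0.55 ± 0.34 and it was not called. Its EV call was lost without the third treated EV library (adjusted p = 0.10, edgeR) and without the second untreated one (0.091), over a range of 0.012 to 0.10 in all alternatives.

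**Figure D4:**
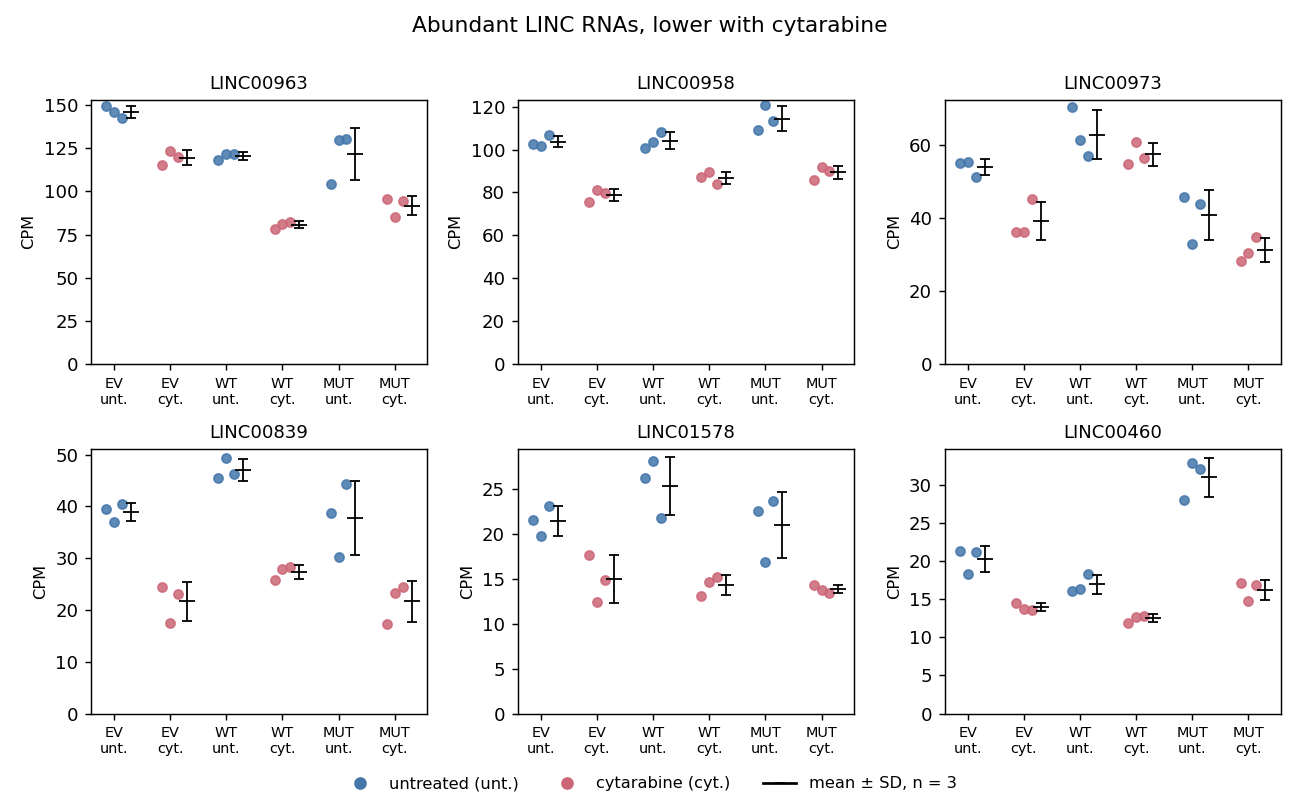
CPM (y axis, from 0) in each library for 6 abundant members lower with cytarabine, by line and treatment (x axis: EV, WT, MUT; unt. untreated, cyt. cytarabine); bars show mean ± SD, n = 3. LINC00973 overlaps between treatments in WT and MUT, and the other 5 do not overlap in any line.

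Some members were named whatever their values, since they are known from other cells. Of these, LINC00511 rose in all lines and LINC00662 and LINC00963 fell in all lines. LINC00707 rose in WT by 0.67 ± 0.12 on the log2 scale and LINC01278 in MUT by 0.36 ± 0.11, each called in that line alone. LINC00339, LINC00467, LINC00667, LINC01116 and LINC01128 were called in no line, with values between -0.34 for LINC00467 and 0.41 for LINC00339, both in WT. LINC00665 rose in MUT, by 1.23 on the log2 scale.

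Whether the cytarabine effect itself differed between lines was tested as the difference of effects. No member was called by edgeR's quasi-likelihood test in MUT minus EV, MUT minus WT or WT minus EV, where 0.214%, 1.00% and 0.285% of all genes were. By direction these were 0.154% higher and 0.0604% lower, 0.510% and 0.494%, and 0.143% and 0.143%. At an unadjusted p under 0.05 the counts of members were 13, 21 and 18, or 7.93%, 12.8% and 11.0%, against 15.8%, 15.4% and 9.96% of all genes. The lowest adjusted p was 0.10 for LINC00589 in MUT minus EV, 0.063 for LINC01287 in MUT minus WT and 0.12 for LINC02407 in WT minus EV. DESeq2 called 0, 1 and 0 members, the 1 being LINC00460 in MUT minus WT. Without the first untreated MUT library 4 members were called in MUT minus EV and 4 in MUT minus WT, and without the second 1 and 3. The shares of all genes called without these libraries were not taken.

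Between lines without drug, 24 members were called in WT against EV, 9 higher and 15 lower, where 11.7% of all genes were called, 4.30% higher and 7.36% lower. In MUT against EV 30 were called, 10 higher and 20 lower, with 19.9% of all genes, 9.88% and 10.0%. In MUT against WT 47 were called, 18 higher and 29 lower, with 21.2% of all genes, 11.7% and 9.54%. As shares of members these are 14.6%, 18.3% and 28.7%. The median log2 difference of all members was 0.10, -0.13 and -0.18, where that of all genes tested was 0.003, -0.003 and 0.005. Antisense genes with an AS suffix had medians of 0.16, -0.10 and -0.21, so the shift was not particular to the members. The 3 comparisons share libraries. The counts moved by over 1.5 times without the second untreated EV library, to 15 in WT against EV and 18 in MUT against EV, and without the second untreated WT library, to 14 in WT against EV. With only the groups compared in the fit they were 47, 10 and 14. Without replicate 1, 2 or 3 of the untreated MUT libraries, which differ most among themselves, the count was 26, 26 and 27 in MUT against EV and 38, 37 and 40 in MUT against WT.

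LINC01419, a gene on chromosome 8 and a member only through its EV libraries, had the largest fitted difference between WT and EV. It measured 5.67, 4.38 and 4.18 CPM in untreated EV, 0.049, 0.212 and 0.110 in WT and 1.05, 1.70 and 0.971 in MUT, so the 3 lines did not overlap. In WT this was 7 counts over the untreated libraries and 3 over the treated ones, 1 in each. Against EV the fitted log2 difference was -5.21 ± 0.40 in WT (adjusted p = 3.46e-08) and -1.94 ± 0.29 in MUT (adjusted p = 0.00016), and MUT exceeded WT by 3.27 ± 0.44 (adjusted p = 3.70e-05; edgeR, all 3). Under cytarabine, with EV at 2.79, 3.06 and 3.76 CPM and MUT at 0.791, 1.01 and 1.48, the count ratio of EV to WT was 65.6 (95% interval 22.1 to 321, counting error only) and that of MUT to WT was 22.2 (7.30 to 110).

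LINC01287 (chr7:153355365-153413982) was lowest in MUT rather than in WT when untreated. EV had 4.62, 2.75 and 3.38 CPM, WT 0.490, 0.529 and 0.935, and MUT 0.150, 0.126 and 0, which was 5 counts over the 3 libraries. The untreated count ratio of EV to MUT was 38.2 (95% interval 16.1 to 119, counting error only) and that of WT to MUT 6.87 (2.69 to 22.4), and WT lay below EV by 2.46 ± 0.41 on the log2 scale. With cytarabine EV had 2.79, 1.81 and 2.22 CPM, WT 0.0464, 0.108 and 0.290, and MUT 0.220, 0.383 and 0.218. WT and MUT then overlapped and their difference was not called (adjusted p = 0.38, edgeR). LINC01287 was also called lower with cytarabine in WT, at a log2 fold change of -2.08. Like LINC01419 it is a member only through its EV libraries. The differences of both genes from EV are therefore a description and support nothing.

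LINC00665 (chr19:36313067-36331719) was low in both DNMT3A lines. Untreated EV had 6.02, 6.60 and 5.90 CPM, WT 2.45, 1.16 and 1.65, and MUT 2.46, 0.943 and 1.03, so that WT and MUT overlapped and EV stood apart. Against EV the log2 difference was -1.80 ± 0.28 in WT and -2.03 ± 0.29 in MUT, and MUT against WT was -0.23 ± 0.31 (adjusted p = 0.65, edgeR). With cytarabine EV had 6.89, 6.87 and 5.99 CPM, WT 2.13, 2.43 and 3.14, and MUT 3.34, 3.88 and 3.44, and the differences from EV were -1.35 ± 0.27 and -0.89 ± 0.26. LINC00896 was lower than EV in untreated WT, by 1.95 ± 0.39, and in untreated MUT, with -1.11 ± 0.36. Under cytarabine LINC00896 was called in neither. It is a member only through its EV libraries, with 17 to 51 counts there and 8 to 33 in the other lines. Its differences from EV are therefore a description and support nothing.

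LINC00346 and LINC01963 were highest in MUT. LINC00346 measured 2.57, 3.68 and 4.37 CPM in untreated EV, 1.67, 1.75 and 1.48 in WT and 7.22, 10.6 and 6.17 in MUT, without overlap. Its log2 difference from EV was -1.11 ± 0.23 in WT and 1.17 ± 0.20 in MUT, and MUT exceeded WT by 2.28 ± 0.21. The same order held with cytarabine, at 9.19, 10.2 and 9.19 CPM in EV, 5.38, 5.57 and 4.50 in WT and 15.9, 12.6 and 14.6 in MUT. LINC01963 measured 2.92, 2.75 and 2.21 CPM in untreated EV, 1.47, 1.64 and 1.76 in WT and 4.76, 8.11 and 5.20 in MUT. Here MUT exceeded EV by 1.19 ± 0.22 and WT by 1.88 ± 0.23, while WT against EV was -0.70 ± 0.24 and not called (adjusted p = 0.072, edgeR).

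LINC02104 (chr5:39520431-39524709), second per kb of exon, was higher in both DNMT3A lines. Untreated EV had 5.73, 6.78 and 5.47 CPM, WT 11.5, 9.89 and 8.85, and MUT 15.2, 9.87 and 16.0. EV stood below all libraries of the other lines, and WT and MUT overlapped. The log2 difference from EV was 0.75 ± 0.17 in WT and 1.20 ± 0.16 in MUT. With cytarabine it was 0.62 ± 0.15 and 0.79 ± 0.15, and LINC02104 also rose with cytarabine in every line. LINC02407 was higher in untreated WT than in EV by 2.37 ± 0.27 and lower in MUT than in WT, with -1.57 ± 0.25. LINC00589 was lower in untreated MUT than in EV (-1.64 ± 0.36) and than in WT (-1.90 ± 0.35); its call against EV was lost when only these 2 groups were fitted (adjusted p = 0.061, edgeR; 0.0016 to 0.061 over all alternatives).

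**Figure D5:**
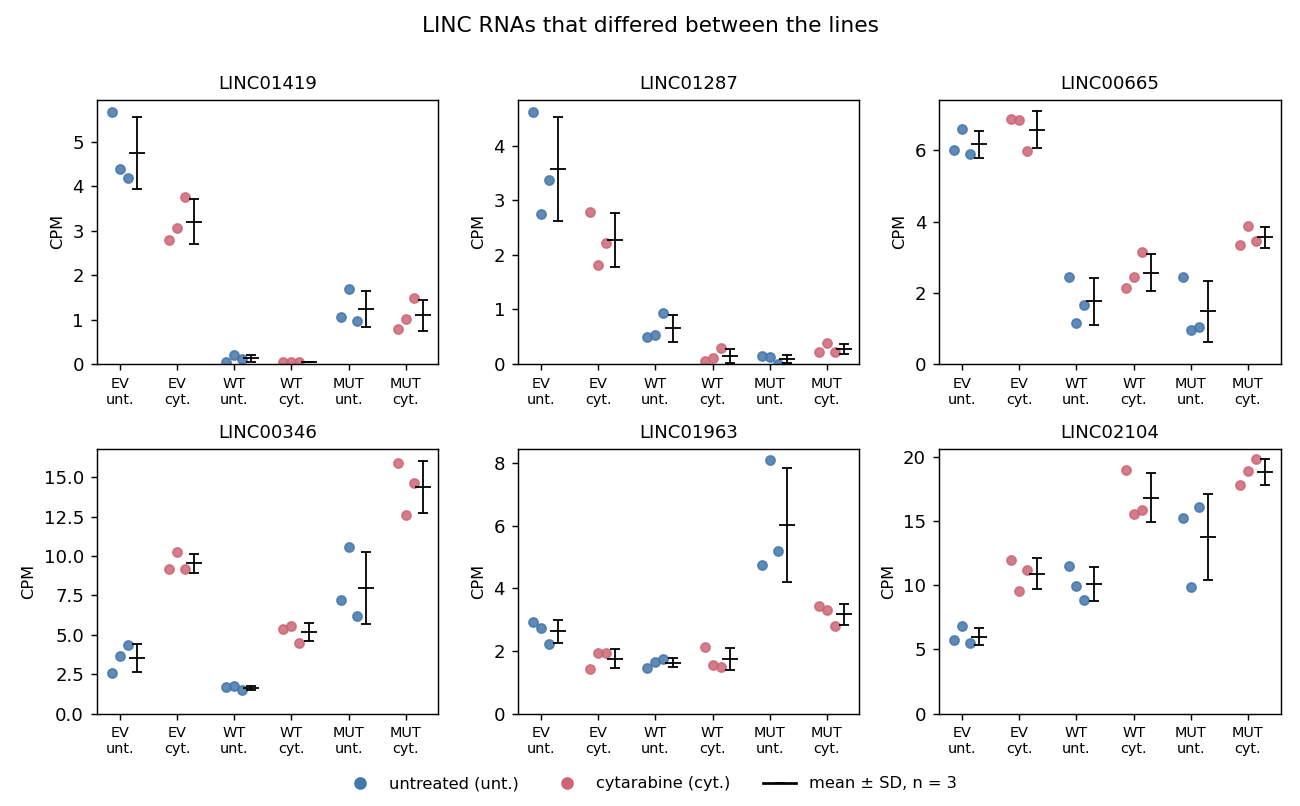
CPM (y axis, from 0) in each library for 6 members that differed between lines, by line and treatment (x axis: EV, WT, MUT; unt. untreated, cyt. cytarabine); bars show mean ± SD, n = 3. LINC01419, LINC01287 and LINC00665 are highest in EV, LINC00346 and LINC01963 are highest in MUT, and LINC02104 is lowest in EV when untreated.

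With cytarabine in all lines, 29 members were called in WT against EV, 17 higher and 12 lower, with 16.5% of all genes, 7.41% and 9.12%. In MUT against EV there were 19, 7 higher and 12 lower, with 14.0% of all genes, 6.85% and 7.13%. In MUT against WT there were 37, 16 higher and 21 lower, with 19.8% of all genes, 10.4% and 9.48%. Without the second treated WT library the counts were 18 in WT against EV and 20 in MUT against WT. The MUT against EV count was 12 without the first treated EV library, 8 without the second treated MUT library and 9 without the third, and MUT against WT was 21 without the first. LINC01963 exceeded EV in treated MUT by 0.85 ± 0.23, a call that was lost without the first treated EV library (adjusted p = 0.086, edgeR) and without the first (0.068) or second (0.061) treated MUT library, over a range of 0.0082 to 0.086. LINC01444 was lower in treated WT than in EV (-1.15 ± 0.31) and higher in MUT than in WT (1.53 ± 0.30), as it was untreated, with -1.36 ± 0.35 and 1.56 ± 0.35.

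The nearest protein-coding gene of the table was set beside each member. In EV 78 members had it within 50 kb without overlap. Of these, 26 were called members with a tested neighbour, and in 11 pairs (42.3%) both were called, 7 in the same direction and 4 in opposite directions. Beyond 50 kb both were called in 11 of 21 (52.4%), 8 the same and 3 opposite. In MUT the counts were 18 of 34 (52.9%), with 11 and 7, within 50 kb and 18 of 28 (64.3%), with 12 and 6, beyond it. In WT they were 15 of 28 (53.6%), with 9 and 6, within 50 kb and 18 of 26 (69.2%), with 11 and 7, beyond it. Among overlapping pairs both were called in 5 of 7 in EV, 3 of 4 in WT and 6 of 9 in MUT. Among all protein-coding genes tested 55.9% were called in EV, 54.7% in WT and 61.9% in MUT, and the shares were not compared by a test. LINC00294 lies within TCP11L1 on the same strand and both rose in each line, LINC00294 by 0.67, 0.75 and 0.98 and TCP11L1 by 0.65, 0.66 and 0.79 as log2 fold changes, from overlapping gene models. LINC00641 and HNRNPC, which encodes an RNA-binding protein of the nucleus, lie 2235 bases apart on the minus strand, and HNRNPC had called log2 fold changes of -1.22, -1.01 and -1.41.

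With cytarabine, some neighbours were not called or moved the other way. HOXB7, 13350 bases from LINC02086, had log2 fold changes of 0.08, 0.08 and 0.14 and was not called in any line, and ANKRD10, 8288 bases from LINC00346, had 0.05, -0.32 and -0.04, not called either. RUNX1, a transcription factor gene that starts 670 bases from LINC01436 in the opposite orientation, fell by 0.51 in EV and 0.58 in WT, where LINC01436 rose by 0.53 and 0.57. In the line comparisons ZFP14, a zinc finger gene 2734 bases from LINC00665, was lower in untreated WT than in EV with a log2 difference of -0.91 ± 0.21 (adjusted p = 0.0075, edgeR) and in MUT had -0.42 ± 0.21, not called. XRCC5, which encodes the Ku80 DNA repair protein, lies 10741 bases from LINC01963 and was higher in untreated MUT than in EV by 0.38 ± 0.07 and than in WT by 0.34 ± 0.07. LINC00294 and the choice of these pairs came after member values were seen.

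Promoter sequence was compared with the response for the 101 matched members. The median number of CpG per window was 11 in members and 14 in all 35093 RefSeq promoters of the table. It was 8 in the 20 members higher with cytarabine in all lines, 20 in the 5 lower in all lines and 17 in the 40 called in no line. The ranges were 1 to 35, 8 to 43 and 0 to 39. They overlap, with the lowest of the 5 falling members at the median of the rising ones. For MUT against EV without drug the median was 5 in 7 higher members and 17.5 in 10 lower ones, and for WT against EV 11 in 7 and 12 in 11. These are descriptions with no test. On either strand, the letters CCAAT were in 40.6% of member windows and 34.6% of all, TATAAA in 15.8% and 11.5%, the AP-1 letters TGAGTCA in 10.9% and 4.95%, the CRE letters TGACGTCA in 1.98% and 1.85%, and the p53 decamer in 7.92% and 6.64%. The E2F letters TTTCCCGC were in 2.97% and 1.63%, and TTTGGCGC in 0 of 101 member windows and 0.653% of all. None of the spelled motifs lies within another. Of the windows shown, 5 of 6 hold CCAAT on a strand, and LINC02086 holds none of the motifs searched.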

How the data were processed

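RNA was measured by sequencing in 18 libraries of U2OS cells, 3 in each of 6 groups. Reads were processed with CASAVA and STAR 2.6.1d on hg38, per the submitters' processing notes; the counting step and its strand setting were not given in the sources used here. Estimated counts were deposited for 25296 genes, with 70.4% of values whole numbers, beside a second table of scaled signal for 19591 genes. By comparison of the deposited tables, each signal value equals 1 plus a library factor times the count, within a relative deviation of 7.36e-06; only these factors were used, as an alternative scaling.

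The estimated counts were rounded to whole numbers. In R 4.3.3 with edgeR 4.0.16 (limma 3.58.1), filterByExpr, TMM scaling, 1 coefficient per group over all 18 libraries and the quasi-likelihood test were used for 12 comparisons: the cytarabine effect in each line, the line differences without and with drug, and the differences of effects. P-values were adjusted by Benjamini-Hochberg over 18226 genes with a threshold of 0.05. CPM are on the TMM-scaled library size. Each ± after a log2 value is a standard error, taken from the fold change and its F statistic. Ratios for groups at or near 3 counts per library carry exact 95% intervals that cover counting error only.

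Named members were the 6 largest rises and 6 largest falls of each cytarabine effect, the 4 and 4 largest of each untreated and the 2 and 2 largest of each treated line comparison and difference, among called members without overlap between groups. To these were added the 8 highest in CPM per kb, the 5 largest shared effects, those nearest the threshold and a list named whatever the values. Not all of these members are described. LINC01814 and LINC01311, with cytarabine effects of 2.68 and -1.27 in MUT on the log2 scale, are among those left out. So is LINC01060, whose cytarabine call in MUT was lost in 8 of 24 alternatives. The members and lists were chosen with earlier results of these data known. Exon lengths came from GENCODE for 163 members, 150 by symbol and 13 by a RefSeq synonym; coordinates of genes are those of the authors' table. DESeq2 1.42.0, other scalings and filters, single libraries left out and a replicate block were run as alternatives, and the scripts were tested on simulated data. Replicates are biological by their labels, and what separated them was not given in the sources used here, so p-values measure the spread between these libraries. Chi-square per degree of freedom between replicates was 2.45 to 46.8, so none was a repeat of another. Same-numbered libraries of different groups correlated above 0.1 in 7 of 45 pairs, so the numbers were not taken to pair samples.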

Additional observations from a re-analysis of the deposited data

How the results depend on the processing

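The counts of called members kept within 1.5 times of their value under upper-quartile scaling, the authors' factors, no filter on low counts and a mean count of at least 10, and DESeq2 moved only the difference of effects in MUT minus WT, to 1. A minimum absolute log2 fold change of 1 left 24, 26 and 27 members in EV, WT and MUT, 11 in all 3 lines, 12, 10 and 14 in the untreated comparisons (WT against EV, MUT against EV, MUT against WT) and 6, 3 and 9 in the treated ones. Leaving out members that overlap another gene left 38, 42 and 49 in EV, WT and MUT, 25 in all 3 lines, 13 and 27 in WT against EV and MUT against WT untreated, and 15 and 21 treated; fewer members are counted by construction. A mean count of at least 50 left 15 in WT against EV untreated and 12 in MUT against EV treated. With only the groups compared in the fit the untreated counts were 47, 10 and 14, and 2 members were called in WT minus EV; the cause was not tested. Leaving out single libraries gave 53 to 69 members in EV, 53 to 74 in WT, 70 to 82 in MUT and 32 to 44 in all 3 lines. It gave 14 to 29, 18 to 28 and 33 to 49 in the untreated comparisons, 18 to 37, 8 to 24 and 20 to 44 in the treated ones, and 0 to 4, 0 to 4 and 0 to 0 in the differences of effects MUT minus EV, MUT minus WT and WT minus EV. With the replicate number as a block the counts were 63, 65 and 79 for the cytarabine effects, 41 in all 3 lines, 23, 28 and 46 untreated, 32, 16 and 37 treated and 0 in each difference, so the block moved no count by over 1.5 times. The shares of all genes called were not taken under these alternative settings. Of 72 named values, described above or not, 57 kept their direction and call in every alternative, 15 lost the call in at least 1 and 0 reversed. The standard error of the cytarabine effect in EV had a median of 0.33 (0.22 to 0.69) over the 68 members with mean counts of 20 to 50, 0.21 (0.13 to 0.39) over 63 at 50 to 200 and 0.12 (0.06 to 0.17) over 33 at 200 and over, so that small changes were least detectable in the first.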

Other observations

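The LINC genes under the threshold were set beside the members. Of these 420 genes 115 were tested, and cytarabine raised 35 and lowered 0 in EV, raised 39 and lowered 3 in WT, and raised 44 and lowered 3 in MUT, by edgeR's quasi-likelihood test. At an unadjusted p under 0.05 there were 42, 52 and 50. Their median log2 fold change was 0.88, 0.76 and 0.95, larger in each line than that of the members, in genes whose counts are lowest. The filter on low counts can pass a gene through its treated group alone, so these values are a description and support nothing.

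Antisense genes with an AS suffix resembled the members in the direction of their calls: of 386 tested, 75 rose and 25 fell in EV, 73 and 34 in WT, and 90 and 32 in MUT. Small nucleolar RNA host genes of the SNHG series, whose introns carry the guide RNAs of ribosomal RNA modification, went the other way. Of 21 tested, 2 rose and 13 fell in EV, 2 and 17 in WT, and 2 and 17 in MUT, with medians of -0.71, -0.81 and -0.81 on the log2 scale. LINC02001, a member whose current symbol is SNHG30, was called with cytarabine in none of the lines, at -0.26, -0.12 and -0.17 in EV, WT and MUT.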
